A study of Mus musculus with 4 samples.

Results

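The genes examined were 10 genes of vascular endothelial growth factor (VEGF) signalling and of the brain endothelium, namely Vegfa, Vegfb, Kdr, Flt1, Tek, Cldn5, Pecam1, Cdh5, Slc2a1 and Mfsd2a. They were taken by symbol from the 16339 named genes of the hypothalamus count table, after the RefSeq transcripts of each symbol had been summed. All 10 were in the table, with 26 transcripts between them, and all 10 passed the filter on low counts. The hypothalamus RNA came from male C57BL/6 animals of 2 genotypes, WT and Tas1r3-/-, the latter lacking TAS1R3, a subunit of the sweet and umami taste receptors. WT animals were littermates of Tas1r3-/- animals, matched to them by age and by weight (23 to 25 g). Both groups received a western diet (WD), which combined 60% fat chow with a 30% sucrose drink, for 12 weeks. The study reports less weight gain on WD in Tas1r3-/- than in WT mice, so the match by weight does not extend to sampling. The values cover 2 libraries per genotype, called WT and Tas1r3-/- replicates 1 and 2 below, since all were of WD-fed mice, and no library of mice on a normal diet was analysed here. The labels describe the deletion only as Tas1r3-/- and name no promoter or Cre that would limit it to a cell type. The labels do not say whether the libraries of a group came from separate animals, so the p-values measure only the spread between these libraries.

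VEGF-A is the main growth and survival signal of endothelial cells and acts through the receptor tyrosine kinase KDR (VEGFR2), while FLT1 (VEGFR1) binds both VEGF-A and VEGF-B and holds VEGF-A back from KDR. TEK (TIE2), the angiopoietin receptor, keeps formed vessels quiescent. Brain capillaries seal the blood-brain barrier with the tight junction protein claudin-5 (Cldn5), VE-cadherin (Cdh5) and PECAM1, feed the tissue through the glucose transporter GLUT1 (Slc2a1), and carry docosahexaenoic acid as a lysophospholipid through MFSD2A, which also restrains vesicle traffic across the endothelium. In the hypothalamus the capillaries of the median eminence are fenestrated instead, and tanycytes beside them are a known source of VEGF-A.

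The library totals were 5917470 and 6177210 estimated counts in WT and 6273772 and 5874782 in Tas1r3-/-, and a count of 0 allowed up to 0.481 to 0.525 CPM (counts per 1000000 of the TMM-scaled library), a limit for counting error only. Tas1r3 itself was at 6.00 and 4.44 CPM in WT replicates 1 and 2 and at 1.12 and 1.23 CPM in Tas1r3-/- replicates 1 and 2, in the direction of the labels. WT replicate 2 stood apart from the other 3 libraries and went against its tissue label. Its 12 hypothalamus markers summed to 39.8 CPM, against 1903 CPM in WT replicate 1 and 1343 to 1387 CPM in Tas1r3-/-, it was the lowest library for 12 of 12, and Nkx2-1 was at 0. The neuropeptide genes Pmch and Avp were at 6.58 and 2.30 CPM in it, where the other libraries ranged from 372.8 to 766.8 CPM for Pmch and from 197 to 335 CPM for Avp. Its 8 thalamus markers, led by Prkcd and Tcf7l2, summed to 1792 CPM, against 87.8 CPM in WT replicate 1 and 134 to 257 CPM in Tas1r3-/-, and it was the highest for 8 of 8. Its 7 choroid plexus markers summed to 764 CPM, against 40.1 to 59.0 CPM in the others, and Ttr made up 677 CPM of that sum, while Clic6 was at 33.2 CPM against 30.8 to 40.8 CPM. The 5 tanycyte markers summed to 19.4 CPM in it and to 76.7 to 99.6 CPM elsewhere, with Col23a1 at 2.63 CPM, Gpr50 at 0.493 CPM and Fndc3c1 at 0. WT replicate 2 was the lowest library for 4 of the 5. The exception was Dio2, at 15.8 CPM in it, against 9.77 CPM in WT replicate 1 and 23.9 and 20.3 CPM in Tas1r3-/-. The 5 red blood cell markers summed to 1955 CPM in it and to 380 to 767 CPM elsewhere, and Hba-a1 and Hba-a2, whose near-identical sequences make either count uncertain alone, were its main part. Results are therefore given with and without WT replicate 2. Without it WT is 1 library, which the test assumes to vary like the Tas1r3-/- libraries.

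The vascular lists differed less between the libraries than the regional markers did. The 10 genes summed to 501 and 553 CPM in WT and to 578 and 567 CPM in Tas1r3-/-, so both Tas1r3-/- sums lay above both WT sums, by less than the gap within WT. A list of 28 other brain endothelial genes summed to 733 and 854 CPM in WT and to 779 and 778 CPM in Tas1r3-/-, between the WT libraries. The 12 mural cell markers summed to 367 and 393 CPM in WT against 369 and 334 CPM in Tas1r3-/-, with Rgs5 at 80.4 and 110.2 against 95.1 and 75.8 CPM. The 8 astrocyte markers, with Aldoc and Slc1a2 the highest, ranged from 3553 to 3822 CPM over the 4 libraries, and the 8 microglia and macrophage markers, with Csf1r the highest, from 226 to 260 CPM. Among these sums only that of the 6 perivascular fibroblast markers had an outlying library, at 44.8 and 40.0 CPM in WT against 74.9 and 32.0 CPM in Tas1r3-/-. Col1a2 and Dcn were at 31.3 and 22.0 CPM in Tas1r3-/- replicate 1 against at most 16.1 and 11.5 CPM in the others. Single genes need not follow the sums. WT replicate 2 was the highest library for 4 and the lowest for 3 of the 8 astrocyte markers. For the 28 endothelial genes these counts were 13 and 7, and for all 14344 genes tested 4856 and 4967.

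**Figure D1:**
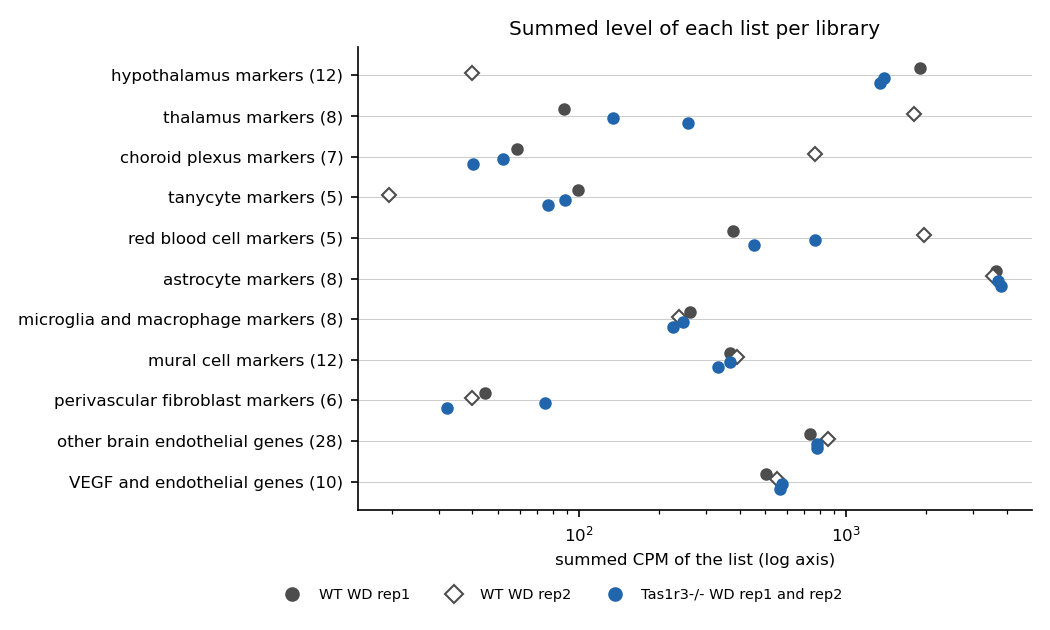
Summed CPM of each list (horizontal log axis, number of genes in parentheses) in WT replicate 1 (grey circles), WT replicate 2 (open diamonds) and both Tas1r3-/- libraries (blue circles). WT replicate 2 lies far from the others for hypothalamus (39.8 CPM) and thalamus (1792 CPM) markers, whereas the 10 VEGF and endothelial genes lie between 501 and 578 CPM in all libraries.

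Levels were compared between genes as mean CPM per kilobase of the canonical GENCODE transcript. Vegfb (36.9), Slc2a1 (34.7), Vegfa (32.8) and Cldn5 (29.3) were the most abundant, and each of them overlapped its neighbour in this order over the 4 libraries. Mfsd2a followed at 15.6 CPM per kilobase (11.6 to 20.7) and Flt1 at 10.0 (7.86 to 11.4), which did not overlap. Pecam1 was at 6.53, Cdh5 at 4.34, Tek at 2.91 and Kdr at 1.99 CPM per kilobase, and of these the libraries of Tek (2.47 to 3.29) and Kdr (1.60 to 2.53) overlapped. Flt1 was thus above Kdr per kilobase in each of the 4 libraries, the lowest Flt1 value being 7.86 and the highest Kdr value 2.53. Canonical transcripts differ from the mixture present, so this order is approximate.

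The comparison of the design is between genotypes under WD, and for these genes it asks whether ligands, receptors, junction proteins or transporters of the vasculature differed in expression. In the quasi-likelihood test of edgeR with Benjamini-Hochberg adjustment over 14344 genes, 0 of the 10 were called (adjusted p below 0.05 with a fold change reaching 1.5), and 0 of all genes tested were (0%). At an unadjusted p under 0.05 edgeR had 772 genes (5.38%), among them 1 of the 10, Mfsd2a, while DESeq2 called 8 of 16339 genes (0.049%), none of them among the 10. The mean was higher in Tas1r3-/- for 4 of the 10 (Vegfa, Flt1, Slc2a1 and Mfsd2a) and lower for 6, where 49% of all genes tested had a higher mean. For 2 of the 10 both Tas1r3-/- libraries lay above both WT libraries (Vegfa and Mfsd2a; 20.6% of all genes) and for another 2 below both (Vegfb and Pecam1; 19% of all genes). That makes 4 of 10 without overlap, where 39.6% of all genes tested had none. The median log2 fold change was -0.08 over the 10 genes and -0.01 over all genes tested. In whole tissue, fewer endothelial cells and less RNA per endothelial cell cannot be told apart.

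Without WT replicate 2 edgeR called 32 of 14714 genes (0.217%) and 0 of the 10. The unadjusted p was then under 0.05 for 4 of the 10 (Mfsd2a, Slc2a1, Flt1 and Vegfb) and for 2012 of all genes (13.7%). Of the 10, 4 had both Tas1r3-/- libraries above WT replicate 1 (37.6% of all genes) and 4 below it (37.5%), and the median log2 fold change was -0.01.

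**Figure D2:**
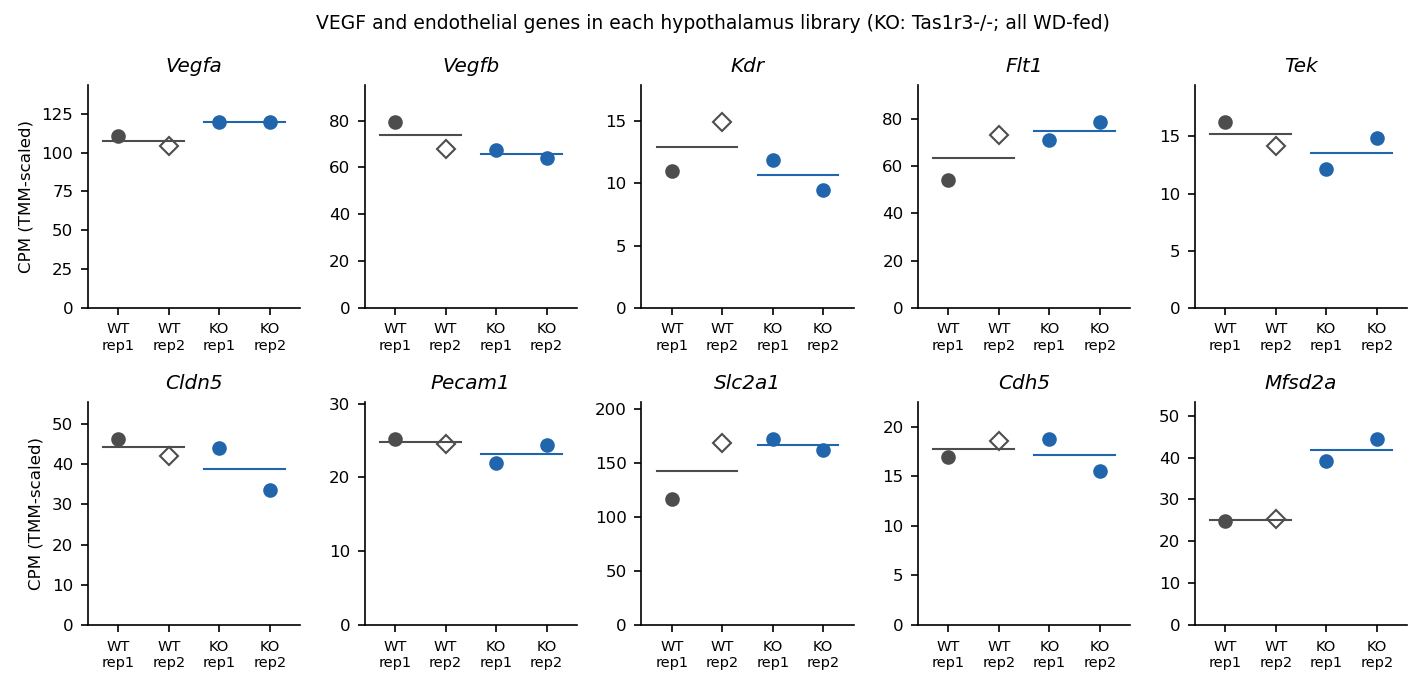
CPM (vertical axes from 0, a separate scale for each gene) of the 10 genes in each library, with horizontal bars for group means; WT replicate 2 is the open diamond. Both Tas1r3-/- libraries lie above both WT libraries for Mfsd2a (39.3 and 44.5 against 24.9 and 25.3 CPM) and, by a smaller margin, Vegfa.

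Vegfa, the ligand of both VEGF receptors (ENSMUSG00000023951, GRCm39 chr17:46327919-46343309, minus strand), was at 111 and 105 CPM in WT and at 119.9 and 120.0 CPM in Tas1r3-/-. Both Tas1r3-/- libraries lay above both WT libraries, and they were almost equal to each other. The log2 fold change was 0.16 ± 0.12 (SE; edgeR adjusted p = 0.774), with a 95% interval from -0.16 to 0.47, and 0.12 ± 0.11 (SE) without WT replicate 2. Vegfb, a ligand of FLT1 (GRCm39 chr19:6958447-6965127, minus strand), was at 79.6 and 67.9 CPM in WT against 67.3 and 64.2 CPM in Tas1r3-/-. WT replicate 1 was the high library, while WT replicate 2 all but met Tas1r3-/- replicate 1. Its log2 fold change was -0.16 ± 0.14 (SE; edgeR adjusted p = 0.778), and -0.27 ± 0.11 (SE; unadjusted p = 0.0336, edgeR adjusted p = 0.324) without WT replicate 2.

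The table lists 10 RefSeq transcripts of Vegfa, which differ by alternative splicing and start. Several had the same estimate in every library, so that 6 distinct profiles remained, and transcripts of 1 profile cannot be told apart in these data. The profile shared by NM_001287057, NM_001317041 and NM_009505 was the most abundant, at 45.5 and 49.6 CPM in WT and 47.2 and 52.3 CPM in Tas1r3-/-, with overlapping groups. It took 44.3% ± 4.5 of the gene's counts in WT and 41.5% ± 3.0 in Tas1r3-/- (SD, n = 2). NM_001110267 came next, at 24.1 and 26.5 CPM against 27.4 and 22.7 CPM, or 23.5% ± 2.5 against 20.9% ± 2.8 of the counts (SD, n = 2). With all 4 libraries the log2 fold change was 0.07 for each transcript of the first profile and -0.02 for NM_001110267, against 0.16 for the gene. Without WT replicate 2 these values were 0.13 and 0.05, against 0.12 for the gene.

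Of the 4 minor Vegfa profiles, 2 had groups without overlap. NM_001025257 with NM_001287058 was at 12.1 and 10.7 CPM in WT and at 13.1 and 14.7 CPM in Tas1r3-/-, without overlap. NM_001025250 with NM_001287056 was at 12.9 and 7.17 CPM against 13.3 and 14.7 CPM, also without overlap, but WT replicate 1 was close to Tas1r3-/- replicate 1. NM_001110268 (7.94 and 6.72 against 9.61 and 7.92 CPM) and NM_001110266 (8.26 and 3.97 against 9.36 and 7.74 CPM) overlapped. In each of these 4 profiles WT replicate 2 was the lowest library. None of the 6 shares differed by an exact permutation test, two-sided, where each p was 0.667 and 2 libraries against 2 allow none below 0.333. In edgeR's test over 25699 transcripts, 0 of the 26 transcripts of the 10 genes and 0 of all (0%) were called, and at an unadjusted p under 0.05 there was 1 of the 26, that of Mfsd2a, against 4.59% of all. Groups did not overlap for 35.7% of all transcripts.

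**Figure D3:**
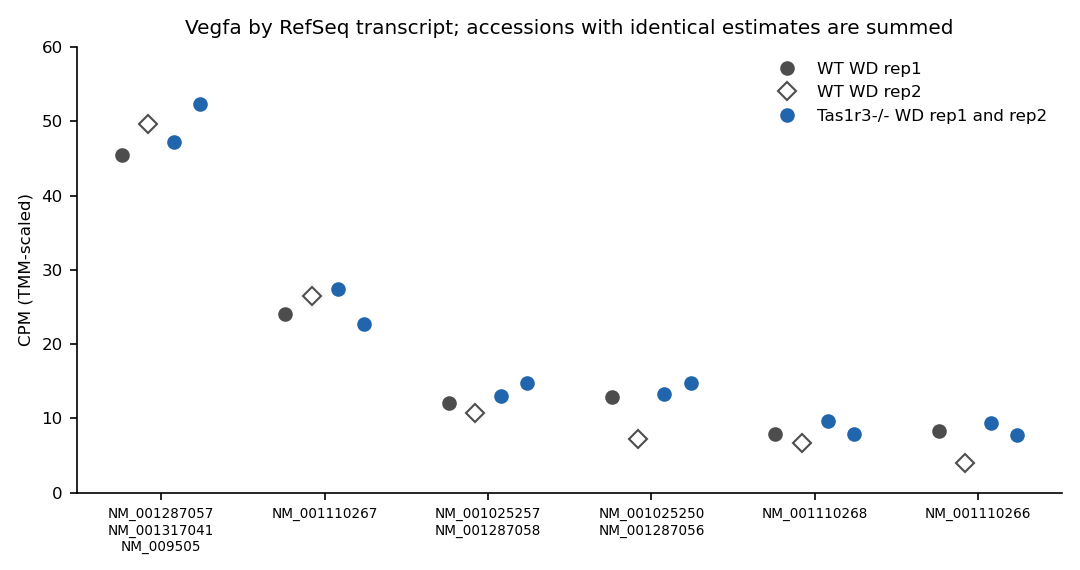
CPM (vertical axis) of the 6 distinguishable Vegfa transcript profiles (horizontal axis, RefSeq accessions with identical estimates summed) in WT replicate 1 (grey circles), WT replicate 2 (open diamonds) and the Tas1r3-/- libraries (blue circles). The highest profile runs from 45.5 to 52.3 CPM with overlapping groups, and WT replicate 2 is the low library in the minor profiles.

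The promoter of Vegfa is shown because VEGF-A is the textbook target of the hypoxia-inducible factors, whose response element has the core ACGTG or GCGTG. The study also measured CREB, whose response element has the core TGACG. It names Vegfa among CREB-mediated genes that rose significantly in WD-fed Tas1r3-/- mice, with 3 mice per group stated. In the 2 libraries per genotype used here Vegfa was not called (edgeR adjusted p = 0.774). The bases upstream of the start of the canonical GENCODE transcript were taken from the RefSeq promoter table (GRCm38.p6). They were placed on GRCm39 by an exact and unique match. Capitals mark matches of these 3 motifs on either strand, and this stretch of 244 bases, chr17:46343310-46343553 on the minus strand, holds none. Sequence further upstream was not searched.
Vegfa: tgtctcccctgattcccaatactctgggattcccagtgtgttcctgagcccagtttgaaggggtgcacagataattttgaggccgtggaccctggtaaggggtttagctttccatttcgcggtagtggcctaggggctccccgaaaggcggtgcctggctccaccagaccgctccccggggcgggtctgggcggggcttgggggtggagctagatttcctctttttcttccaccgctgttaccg
A second RefSeq window of Vegfa, inside the gene, holds 1 match of each motif, with those of ACGTG and TGACG overlapping. Of the 32851 windows of 250 bases in the table, 16.6% hold ACGTG, 28.2% GCGTG and 17.8% TGACG. The table has 9 windows for 8 of the 10 genes, 2 of them for Vegfa. Of these 9 windows, 3 hold ACGTG (Mfsd2a, Slc2a1 and Vegfa). GCGTG is in 6 of the 9 (these 3 genes, Flt1, Kdr and Vegfb) and TGACG in 2 (Flt1 and Vegfa). A match describes letters in a window, and no binding was measured.

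The receptors showed no common direction. Kdr, the main signalling receptor (GRCm39 chr5:76093487-76139884, minus strand), was at 10.97 and 15.0 CPM in WT and 11.9 and 9.45 CPM in Tas1r3-/-. WT replicate 2 was the high library and the groups overlapped. The log2 fold change of -0.28 ± 0.27 (SE; edgeR adjusted p = 0.797) moved to -0.04 ± 0.29 (SE) without WT replicate 2. Kdr had the fewest counts of the 10 genes, with 54.4 to 91.3 estimated counts a library, and its 95% interval ran from -0.98 to 0.42.

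Flt1, the receptor that also acts as a decoy for VEGF-A (GRCm39 chr5:147498414-147662826, minus strand), was at 54.2 and 73.0 CPM in WT and at 71.0 and 78.8 CPM in Tas1r3-/-. WT replicate 2 lay between the Tas1r3-/- libraries and WT replicate 1 was low, so the groups overlapped. Over the gene the log2 fold change was 0.24 ± 0.19 (SE; edgeR adjusted p = 0.774), and 0.47 ± 0.12 (SE; unadjusted p = 0.00387, edgeR adjusted p = 0.184) without WT replicate 2. Of its RefSeq transcripts, NM_010228 was at 43.0 and 50.5 CPM against 52.1 and 56.7 CPM and NM_001363135 at 11.4 and 22.5 CPM against 18.3 and 21.9 CPM, so both were lowest in WT replicate 1.

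Tek, the angiopoietin receptor (GRCm39 chr4:94627291-94763224, plus strand), was at 16.3 and 14.1 CPM in WT and at 12.2 and 14.9 CPM in Tas1r3-/-, with overlapping groups. Its log2 fold change was -0.17 ± 0.22 (SE; edgeR adjusted p = 0.842) and -0.27 ± 0.24 (SE) without WT replicate 2. For each of the 3 transcripts of Tek the share differed widely within at least 1 group. The share of NM_001290549 was 68.1% and 28.0% in WT and 67.1% and 40.0% in Tas1r3-/-. That of NM_013690 was 23.6% and 63.6% in WT, the higher value in WT replicate 2, but 17.6% and 20.2% in Tas1r3-/-. That of NM_001290551 was 8.33% and 8.45% in WT and 15.3% and 39.8% in Tas1r3-/-. By CPM the groups did not overlap for NM_013690 (lower in Tas1r3-/-) and NM_001290551 (higher), where 35.7% of all transcripts had no overlap.

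Among the junction and adhesion genes the means were lower in Tas1r3-/- by small amounts, except that the difference of Cdh5 turned without WT replicate 2. Cldn5, the main claudin of brain capillaries (GRCm39 chr16:18595597-18597012, plus strand, a gene of 1 exon), was at 46.3 and 42.1 CPM in WT and 43.9 and 33.6 CPM in Tas1r3-/-. The groups overlapped and Tas1r3-/- replicate 2 was the low library. Its log2 fold change was -0.19 ± 0.18 (SE; edgeR adjusted p = 0.798) and -0.25 ± 0.18 (SE) without WT replicate 2.

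Pecam1, an adhesion molecule of endothelial contacts (GRCm39 chr11:106543689-106641454, minus strand), was at 25.2 and 24.5 CPM in WT against 22.0 and 24.3 CPM in Tas1r3-/-. The groups all but touched, at 24.5 and 24.3 CPM. Its log2 fold change was -0.10 ± 0.16 (SE; edgeR adjusted p = 0.872) and -0.12 ± 0.18 (SE) without WT replicate 2. While the gene total was stable, transcript NM_001305158 took 8.06% and 1.57% of it in WT and 0.641% and 55.5% in Tas1r3-/-, so the transcript estimates of Pecam1 disagreed between libraries of 1 group by more than between genotypes.

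Cdh5, which encodes VE-cadherin of the adherens junctions (GRCm39 chr8:104828231-104871143, plus strand), was at 17.0 and 18.6 CPM in WT and at 18.8 and 15.6 CPM in Tas1r3-/-. The Tas1r3-/- libraries enclosed the WT libraries. A log2 fold change of -0.05 ± 0.19 (SE; edgeR adjusted p = 0.954), with a 95% interval from -0.55 to 0.45, turned to 0.02 ± 0.22 (SE) without WT replicate 2.

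The transporters held the difference that was most even over the libraries. Mfsd2a, the lysophospholipid transporter (ENSMUSG00000028655, GRCm39 chr4:122840643-122855244, minus strand), was at 24.9 and 25.3 CPM in WT and at 39.3 and 44.5 CPM in Tas1r3-/-. Both Tas1r3-/- libraries were well above both WT libraries. For this gene the libraries of each group lay close together, although WT replicate 2 was the library low in hypothalamus markers. The means were 25.1 ± 0.3 and 41.9 ± 3.7 CPM (SD, n = 2), from 145 and 154 against 245 and 254 estimated counts. The ratio of the genotypes was 1.67, while replicate 2 over replicate 1 was 1.02 in WT and 1.13 in Tas1r3-/-. The log2 fold change was 0.74 ± 0.15 (SE), with a 95% interval from 0.35 to 1.12 and an unadjusted p of 0.0045, but it did not pass the test across all genes (edgeR adjusted p = 0.757). Without WT replicate 2 it was 0.75 ± 0.17 (SE; edgeR adjusted p = 0.129), and over the 4 ways of leaving out 1 library it ranged from 0.64 to 0.82. Of all settings run, Mfsd2a was called only when WT replicate 1 was left out, so that the library without hypothalamus markers stood alone for WT (edgeR adjusted p = 0.0117), and in that fit 2123 of 14841 genes were called (14.3%).

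With library size set to the sum of the 28 other brain endothelial genes, a scaling chosen after the data were examined, the ratio of Mfsd2a was 1.69. Between the WT libraries, where the thalamus markers went from 87.8 to 1792 CPM, Mfsd2a differed by a ratio of 1.02. These libraries also differed in hypothalamus, choroid plexus and red blood cell markers. Whether the brain region or the amount of endothelium bears on the level of Mfsd2a was not tested. Mfsd2a lies on the chromosome of Tas1r3, 33.1 Mb before it on GRCm39, as do Slc2a1 at 36.9 Mb and Tek at 61.2 Mb. Whether this position bears on their levels was not tested.

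Slc2a1, which encodes GLUT1 (ENSMUSG00000028645, GRCm39 chr4:118965908-118996365, plus strand), was at 116 CPM in WT replicate 1 and at 168 CPM in WT replicate 2, against 172 and 162 CPM in Tas1r3-/-. WT replicate 1 alone was low and WT replicate 2 lay between the Tas1r3-/- libraries. The ratio within WT, 1.45, exceeded the ratio of the genotypes, 1.17. The log2 fold change was 0.23 ± 0.21 (SE; edgeR adjusted p = 0.789), it was 0.52 ± 0.11 (SE; unadjusted p = 0.00109, edgeR adjusted p = 0.125) without WT replicate 2, and it was -0.005 without WT replicate 1. Its value rested on which WT library was used, and so did that of Flt1, which was 0.04 without WT replicate 1.

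**Figure D4:**
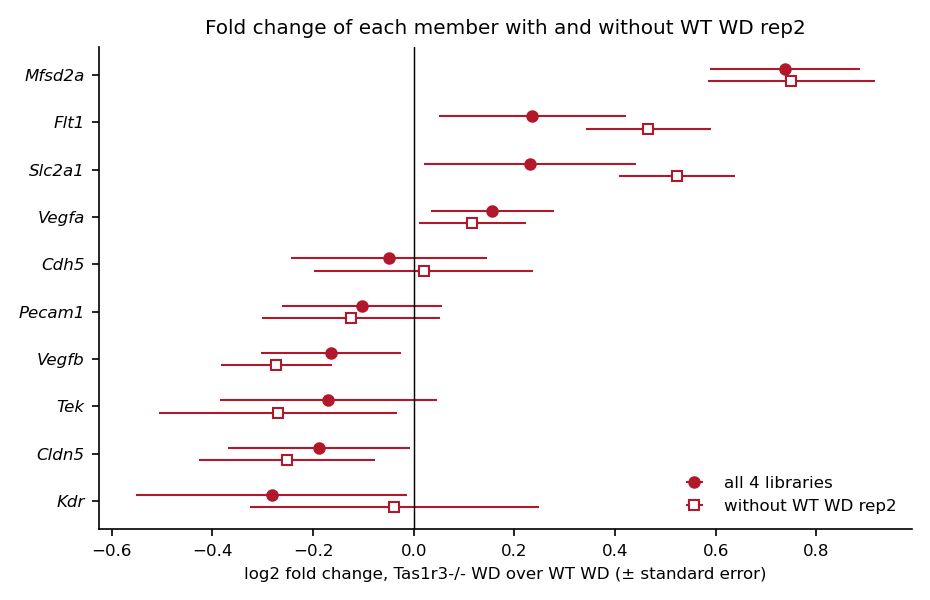
Log2 fold change, Tas1r3-/- over WT (horizontal axis, bars ± SE), of the 10 genes with all 4 libraries (filled circles) and without WT replicate 2 (open squares). Mfsd2a stays at 0.74 and 0.75, whereas Flt1 moves from 0.24 to 0.47 and Slc2a1 from 0.23 to 0.52.

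The promoters of both transporter genes are shown because these were the highest fold changes among the 10 genes without WT replicate 2, with the same motifs in capitals. That of Mfsd2a, chr4:122854982-122855231 on the minus strand of GRCm39, holds 2 matches of ACGTG, whose first bases are 107 and 9 bases before the RefSeq start. It also holds 2 of GCGTG, at 64 bases and, on the other strand, at 135 bases. This window is upstream of the canonical GENCODE transcript, but it lies inside the annotated gene and overlaps an exon of that gene.
Mfsd2a: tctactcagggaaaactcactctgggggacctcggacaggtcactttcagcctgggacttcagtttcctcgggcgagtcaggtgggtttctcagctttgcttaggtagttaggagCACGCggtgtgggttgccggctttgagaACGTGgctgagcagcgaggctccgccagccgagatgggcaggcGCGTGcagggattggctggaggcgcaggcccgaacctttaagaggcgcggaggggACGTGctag
That of Slc2a1, chr4:118965692-118965907 on the plus strand, holds 1 match of GCGTG on the other strand, 61 bases before the RefSeq start, and a match of ACGTG at 36 bases runs past the GENCODE start and is not printed whole.
Slc2a1: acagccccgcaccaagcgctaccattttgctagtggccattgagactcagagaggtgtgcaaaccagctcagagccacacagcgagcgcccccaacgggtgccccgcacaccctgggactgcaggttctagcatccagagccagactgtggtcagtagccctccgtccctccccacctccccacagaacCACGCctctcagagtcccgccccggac
Vegfb and Kdr, whose log2 fold changes were negative, also hold 2 matches of GCGTG each in their windows.

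The wider VEGF, angiopoietin and Notch pathway was represented by 20 genes, of which 15 passed the filter on low counts. Vegfd, Angpt2, Sh2d2a, Esm1 and Aplnr did not, and are named after their values were seen. Of the 15, 0 were called, the mean was higher in Tas1r3-/- for 11 and lower for 4, and the median log2 fold change was 0.13, against -0.01 over all genes. Of these, 5 had both Tas1r3-/- libraries above both WT libraries (Nrp1, Ptprb, Dll4, Nos3 and Plcg1) and 1 below (Tie1). Without WT replicate 2 the counts were 12 and 3 with a median of 0.10. The list was chosen with earlier results of these data known, and the groups did not overlap for 6 of 15, against 39.6% of all genes.

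Nrp1, the neuropilin that serves as coreceptor of VEGF-A and KDR, was at 50.9 and 35.7 CPM in WT and at 61.6 and 65.8 CPM in Tas1r3-/-, with WT replicate 2 the lowest. Its log2 fold change of 0.56 ± 0.20 (SE; unadjusted p = 0.0418, edgeR adjusted p = 0.757) was 0.32 ± 0.13 (SE) without WT replicate 2. Nrp2, the related coreceptor of VEGF-C, was at 81.1 and 79.3 CPM against 98.5 and 78.8 CPM, with overlap (0.14, and 0.13 without WT replicate 2). Ptprb, the phosphatase that holds TEK and KDR signalling down, was at 31.0 and 37.3 CPM against 42.3 and 40.8 CPM (log2 fold change 0.28 ± 0.16, SE, and 0.42 without WT replicate 2). Plcg1, a phospholipase downstream of KDR, was at 86.9 and 77.6 CPM against 93.6 and 92.2 CPM (0.18 ± 0.13, SE, and 0.10 without WT replicate 2). Among the Notch genes, the receptor Notch1 was at 60.4 and 50.5 CPM against 61.3 and 60.0 CPM, with overlap (0.13, and 0.01 without WT replicate 2), and the tip cell ligand Dll4 at 2.57 and 3.45 CPM against 4.65 and 4.90 CPM (0.66 ± 0.36, SE, and 0.89 without WT replicate 2). Vegfc, the lymphatic growth factor, was at 2.74 and 4.28 CPM against 1.60 and 3.50 CPM (-0.47 ± 0.54, SE), and its log2 fold change was -0.12 without WT replicate 2. Of the 15 genes Nrp1 had an unadjusted p under 0.05 with all 4 libraries.

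All 15 genes of the hypoxia pathway passed the filter and 0 were called. The mean was higher in Tas1r3-/- for 10 and lower for 5, with a median log2 fold change of 0.09, and for 11 and 4 with a median of 0.14 without WT replicate 2. Separated groups were found for 5 with Tas1r3-/- above WT (Hif1a, Hif3a, Vhl, Egln1 and Ddit4) and for 2 with Tas1r3-/- below WT (Hif1an and Bnip3), that is, for 7 of 15, where 39.6% of all genes tested had no overlap. Hif3a, which encodes a HIF alpha subunit that can oppose the others, was at 9.43 and 7.40 CPM in WT against 19.4 and 12.3 CPM in Tas1r3-/-. The Tas1r3-/- libraries themselves were far apart, and the log2 fold change was 0.91 ± 0.32 (SE; unadjusted p = 0.0353, edgeR adjusted p = 0.757), and 0.75 ± 0.32 (SE) without WT replicate 2.

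Vhl, the ubiquitin ligase subunit that removes HIF alpha, was at 32.1 and 36.8 CPM against 44.9 and 42.9 CPM (log2 fold change 0.35 ± 0.14, SE), and Ddit4, a stress-induced inhibitor of mTORC1, at 25.2 and 37.3 CPM against 38.0 and 47.4 CPM (0.45 ± 0.25, SE). In Ddit4 the higher WT library, replicate 2, was close to the lower Tas1r3-/- library. Without WT replicate 2 the log2 fold changes were 0.45 for Vhl and 0.76 ± 0.18 (SE; unadjusted p = 0.00215, edgeR adjusted p = 0.157) for Ddit4. Hif1a was at 84.4 CPM in both WT libraries and at 92.99 and 92.6 CPM in Tas1r3-/-, a log2 fold change of 0.14 ± 0.12 (SE), and of 0.14 without WT replicate 2. Epas1, the HIF2 alpha gene of endothelium, was at 222.5 and 226 CPM against 270.0 and 221 CPM, with overlap (0.13, and 0.14 without WT replicate 2). The prolyl hydroxylase genes Egln1 (86.2 and 79.4 against 94.6 and 88.0 CPM) and Egln2 (115 and 125 against 121 and 135 CPM) and the hypoxia-induced Ndrg1 (148 and 174 against 167 and 177 CPM) had log2 fold changes of 0.14, 0.09 and 0.09, with overlap for Egln2 and Ndrg1, and of 0.08, 0.15 and 0.22 without WT replicate 2.

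Of the 28 other brain endothelial genes, all were tested and 0 were called. The mean was higher for 12 and lower for 16, with a median of -0.04, which became 17 and 11 with a median of 0.13 without WT replicate 2. The groups did not overlap for 7 of 28, against 39.6% of all genes tested, with Tas1r3-/- above WT for 4 (Tjp1, Slc7a5, Abcg2 and Plvap) and below for 3 (Eng, Slco1a4 and Tfrc). Slc7a5, the large neutral amino acid transporter of the barrier, was at 76.1 and 80.9 CPM in WT and 95.7 and 108 CPM in Tas1r3-/- (log2 fold change 0.38 ± 0.13, SE; unadjusted p = 0.0377, edgeR adjusted p = 0.757). Tjp1, the tight junction scaffold ZO-1, was at 75.8 and 79.1 CPM against 97.2 and 103 CPM (0.37 ± 0.12, SE; unadjusted p = 0.0291, edgeR adjusted p = 0.757). These gaps were wider than the spread within either group, and the fold changes were 0.42 and 0.40 without WT replicate 2. Both genes are also expressed outside the endothelium.

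On the low side, Tfrc, the transferrin receptor, was at 71.7 and 114 CPM in WT and at 62.5 and 62.1 CPM in Tas1r3-/-. Slco1a4, an organic anion transporter of brain capillaries, was at 35.7 and 50.3 CPM against 29.2 and 30.1 CPM. In both, WT replicate 2 was the high library, and without it the log2 fold changes of -0.57 ± 0.24 and -0.54 ± 0.21 (SE) became -0.20 and -0.27. Eng, the endoglin coreceptor, was even within groups, at 48.4 and 48.0 CPM against 39.8 and 38.9 CPM, with -0.29 ± 0.12 (SE; edgeR adjusted p = 0.757) and -0.30 without WT replicate 2. The lactate transporter Slc16a1 was at 47.0 and 57.4 CPM against 51.3 and 51.8 CPM, and the glutamine transporter Slc38a5 at 2.40 and 5.43 CPM against 1.92 and 2.80 CPM, both with overlap. Their log2 fold changes were -0.02 and -0.73 with all 4 libraries and 0.13 and -0.03 without WT replicate 2.

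The mural cells that surround the endothelium split evenly, with 6 of 12 markers higher and 6 lower, 0 called and a median of -0.02, and 7 and 5 without WT replicate 2. Vtn, a matrix protein made by pericytes, was at 97.2 and 108 CPM in WT against 81.8 and 77.0 CPM in Tas1r3-/- (log2 fold change -0.37 ± 0.13, SE; unadjusted p = 0.0366, edgeR adjusted p = 0.757), and -0.29 without WT replicate 2.

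**Figure D5:**
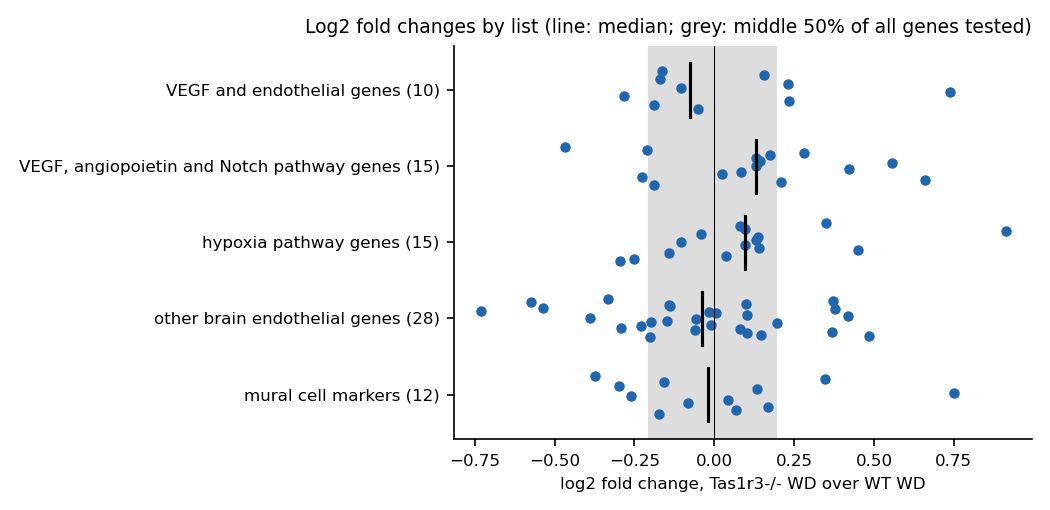
Log2 fold change, Tas1r3-/- over WT (horizontal axis), of each gene tested in the 5 lists (number tested in parentheses), with a black line at the median of each list and grey shading over the middle 50% of all genes tested (-0.20 to 0.19). Mfsd2a is the rightmost of the 10 genes at 0.74, and list medians lie between -0.08 and 0.13.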

How the data were processed

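Per the labels, messenger RNA was selected on beads and freed of remaining ribosomal RNA, and barcoded cDNA was prepared with an Ion kit. With STAR as the aligner, mm39 as the build and Partek Flow as the software, the authors deposited an estimated count for each RefSeq transcript and library, without normalization. Of these values 13.2% were whole (tolerance 1e-06), and no listed transcript totalled under 10 estimated counts. Tables of single libraries repeat the joint table. The design had assumed counts by gene. The transcripts of each gene were added up through their RefSeq accessions (30891 of 30930 were matched; a GRCm38.p6 table gave the names) and rounded. The 39 transcripts with no gene held 0.347% to 2.49% of a library and were left out.

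Genotypes were compared with edgeR 4.0.16 in R 4.3.3 (quasi-likelihood test, TMM, filterByExpr, Benjamini-Hochberg adjustment over all genes). Genes were called below an adjusted p of 0.05 where the fold change reached 1.5, the thresholds of the study, whose methods name DESeq2. CPM are counts per 1000000 of the TMM-scaled library. Alternatives were RLE size factors, total counts, DESeq2 1.42.0, limma-trend (limma 3.58.1), filters of 1 count in any library and of 10 in every library, a block for the replicate number and leaving out each library. Scaling to 28 endothelial genes and DESeq2 without WT replicate 2 were added after the data were examined. The edgeR step was tested on simulated data. The replicate numbers name samples only, since the labels tie them to nothing shared. Vegfa transcript shares were compared by an exact permutation test. Positions are from GENCODE M39 on GRCm39, matched by symbol. Promoters are from the RefSeq table. Plots were made in Python 3.11.15 (matplotlib 3.10.9).

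The members and lists were chosen with earlier results of these data known. All 10 members were named. Of the VEGF, angiopoietin and Notch, hypoxia and other endothelial lists, the 5 genes with the highest mean CPM, genes called and the 3 with the largest absolute log2 fold change (mean of at least 2 CPM) were named, and of each marker list (mural cell, perivascular fibroblast, red blood cell, microglia and macrophage, astrocyte, tanycyte, choroid plexus, thalamus, hypothalamus) the 2 highest, of which 1 gene is not reported here. Genes without overlap between the groups were named after their values were seen. The methods state 3 mice per group, of which 2 libraries each were analysed here.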

Additional observations from a re-analysis of the deposited data

How the results depend on the processing

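No gene of the 10 was called with the 4 libraries under any scaling, filter, tool or the replicate block (0 called, with 1 of the 10 and 667 of all genes at an unadjusted p under 0.05 under the block). The same-numbered libraries had a correlation of 0.08 in their deviations, so the numbers are not taken as pairs. Over all genes DESeq2 called 8, and 11 without WT replicate 2. Leaving out 1 library each, the calls ranged from 0 to 2123 over all genes, from 0 to 1 over the 10 genes (Mfsd2a, without WT replicate 1), and from 0 to 44 over the lists, with the highest count always without WT replicate 1. Without WT replicate 2, 32 genes were called, 1 of them in the lists. Of 130 values of the 10 genes under other settings, 125 kept their direction and side of the threshold. The exceptions were that of Mfsd2a, Slc2a1 without WT replicate 1 (-0.004996, in a range up to 0.52 over the fits with 1 library left out) and Cdh5 (range -0.19 to 0.0712, with 0.0712 without Tas1r3-/- replicate 2 and 0.0195 without WT replicate 2, and 0.0166 in DESeq2 without WT replicate 2). The share of the main Vegfa profile, Tas1r3-/- minus WT, was -2.8 percentage points and ranged from -5.97 to 0.36 with 1 library left out. There were 2 libraries a group, WT replicate 2 was low in hypothalamus markers, and Kdr had the fewest counts of the 10 genes, 54.4 to 91.3 estimated counts a library.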

Other observations

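Myh11, the smooth muscle myosin of arterial walls, was the mural marker with the lowest p and was chosen after its values were seen. It was at 12.9 and 12.7 CPM in WT and at 22.1 and 20.8 CPM in Tas1r3-/-. Both Tas1r3-/- libraries lay above both WT libraries and the spread within the groups was small. The log2 fold change was 0.75 ± 0.17 (SE; unadjusted p = 0.00814, edgeR adjusted p = 0.757), and 0.74 without WT replicate 2. The other smooth muscle genes of the list did not follow it, with Acta2 at 16.8 and 18.1 CPM against 21.2 and 15.4 CPM and Tagln at 9.43 and 4.11 CPM against 6.73 and 10.5 CPM.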
